A study of Mus musculus with 8 samples.

Results

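The 7 genes described here are the ligands, receptors and adaptor of a pair of secreted cues that place cells in the developing cerebellum: Cxcl12 with its receptors Cxcr4 and Ackr3 (older symbol Cxcr7), and Reln with its receptors Vldlr and Lrp8 and the adaptor Dab1. They were taken by name from the 24062 genes of the deposited tables, all 7 were found there, and all 7 passed the filter on low counts that left 15789 genes for testing. RNA came from whole cerebella of single mouse pups at postnatal day 2 on a mixed C57BL/6 background, with 4 mutant and 4 control littermates. The mutants were Math1-Cre; Sufu flox/-, with a null and a floxed allele of Sufu, which encodes an inhibitor of the Gli transcription factors of Hedgehog signalling. The controls were Sufu flox/+, and the labels do not say whether they carried Math1-Cre. By the mating described, 1 parent was homozygous for floxed Sufu and for a Math1 mgfp allele, so pups of both groups should carry 1 copy of each. Math1-Cre is driven by regulatory sequence of Math1 (Atoh1) and recombines in the granule cell lineage, so the recombined cells were part of the tissue sampled, while the null allele was in every mutant cell. Each title also carries a letter, P for controls 1 and 2 and mutants 1 and 2, and R for controls 3 and 4 and mutants 3 and 4, whose meaning is not stated.

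CXCL12 is a chemokine made by the meninges over the newborn cerebellum, and it holds granule cell precursors, which carry its receptor CXCR4, in the external granule layer beneath the surface. ACKR3 binds the same ligand and mainly removes it. Reelin is an extracellular glycoprotein made in the newborn cerebellum by granule cell precursors and by neurons of the nuclei, and it binds VLDLR and LRP8 (also called ApoER2) on migrating Purkinje cells, where Src family kinases then phosphorylate the adaptor DAB1. Without Reelin, DAB1 or both receptors, Purkinje cells stay in a deep mass and the cerebellum remains small.

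The libraries held 21479565 to 26638284 counts in genes. Sufu, the targeted gene, was 53.8 ± 5.72 CPM across controls and 35.7 ± 3.45 CPM across mutants (SD, n = 4 each), with no overlap between the groups. CPM are counts of a gene per 1000000 counts in all genes, on library sizes scaled by edgeR. Xist, the RNA of the inactive X chromosome, was 1.76 CPM in mutant 2 and 0.82 CPM in mutant 4, against 1449 to 2197 CPM in the other 6 libraries. Hox genes, which mark hindbrain behind the cerebellum, were lower in 3 of the mutants: the mean log2 CPM of 11 Hox genes, less the control mean, was 0.17, -1.56, -0.53 and -4.20 in mutants 1 to 4, while controls ranged from -0.43 to 0.42. Mutant 4 had the lowest of these scores, so values without it are given below where they bear on a result.

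All 7 genes had a higher mean log2 level in mutants than in controls, as did 52.3% of all genes tested. The differences of Cxcr4, Vldlr and Reln had the smallest p-values, with mean CPM 1.71, 1.27 and 1.22 times the control mean. None of the 7 passed the test across all genes, where the edgeR adjusted p was 0.381 for Cxcr4 and Vldlr and 0.391 for Reln, and 0% of all genes passed. At an unadjusted p under 0.05, edgeR took 3 of the 7 as higher and 0 as lower, where it took 6.94% of all genes as higher and 5.7% as lower. DESeq2 called 0 of the 7, where it called 0.248% of genes as higher and 0.0745% as lower. The groups did not overlap for 1 of the 7, Vldlr, where 3.6% of all genes were higher in every mutant than in every control and 2.96% were lower. The median log2 fold change of the 7 was 0.19, against 0.012 over all genes.

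**Figure D1:**
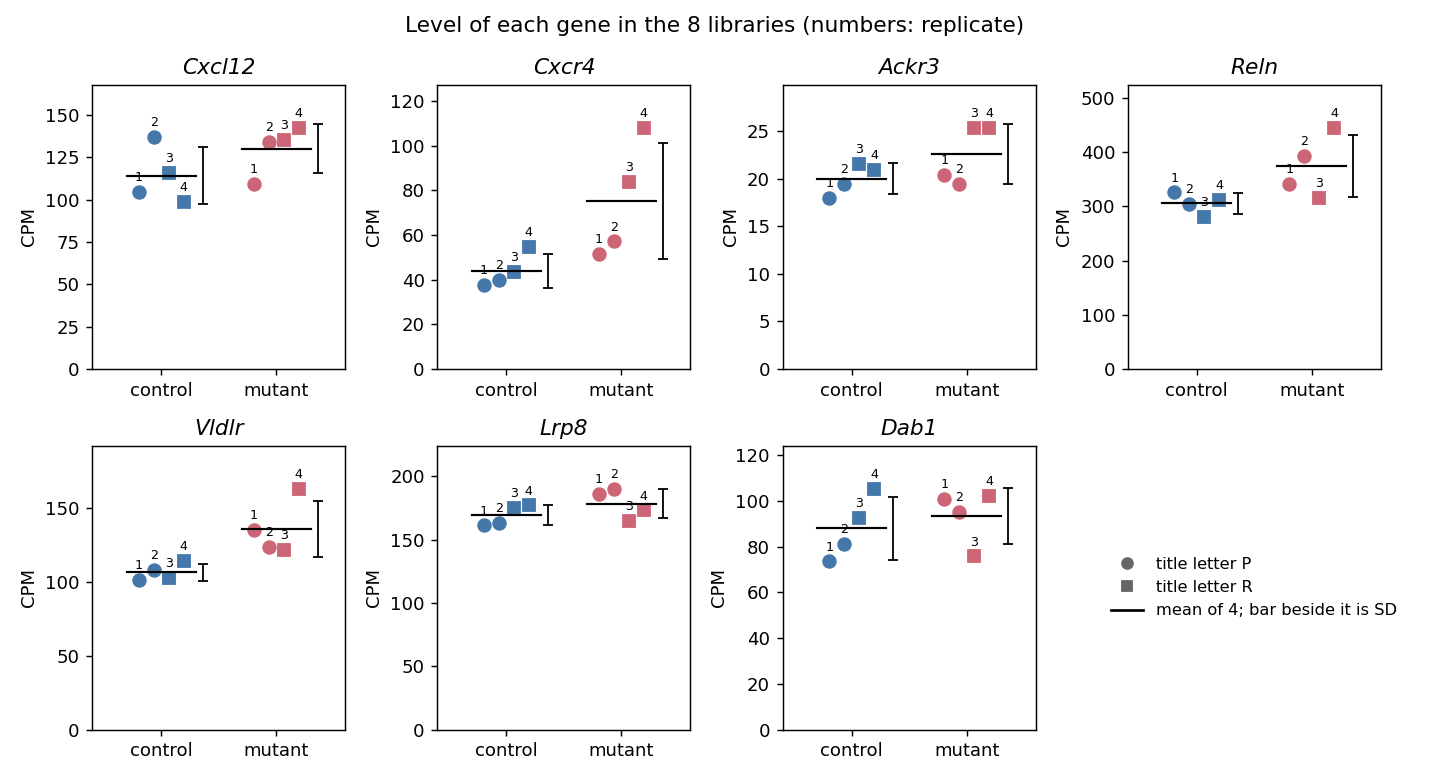
Level of each gene in CPM (y axis, from 0) in the 4 control and 4 mutant libraries, with circles for title letter P, squares for R, the replicate number above each point, a line at the mean and a bar of 1 SD beside it. Every Vldlr point of the mutants, 122 to 163 CPM, lies above every control point, 102 to 114 CPM, while the groups of the other 6 genes overlap.

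Per length of gene, Reln, Cxcr4 and Lrp8 had the highest control means of the 7. In CPM per kilobase of protein-coding exon (GENCODE M21 models), the control means were 26.1 for Reln, 24.3 for Cxcr4, 22.0 for Lrp8, 15.9 for Cxcl12, 13.5 for Dab1, 12.8 for Vldlr and 5.97 for Ackr3. Control ranges of neighbours in this order overlapped between Reln and Cxcr4, between Cxcr4 and Lrp8, between Cxcl12 and Dab1 and between Dab1 and Vldlr. Every Lrp8 value was above the highest Cxcl12 value, 19.1, and the highest Ackr3 value, 6.44, was below all others. In mutants Cxcr4 had the highest mean level per kilobase, 41.5, before Reln with 32.0. The models are of another genome build than the counts, so these levels hold as an order of size only.

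The promoters of Cxcr4, Reln and Vldlr, the genes with the smallest p-values of the 7, are shown here so that their base composition can be compared. Each run is the 250 bases upstream of a start site in RefSeq (GRCm38.p6), 5′ to 3′ on the gene's strand, with GC boxes (GGGCGG or its reverse complement CCGCCC, the core bound by Sp1) in capitals. Vldlr has 2 start sites in the table, and both windows are shown.
Cxcr4, chr1:128592300-128592549, minus strand: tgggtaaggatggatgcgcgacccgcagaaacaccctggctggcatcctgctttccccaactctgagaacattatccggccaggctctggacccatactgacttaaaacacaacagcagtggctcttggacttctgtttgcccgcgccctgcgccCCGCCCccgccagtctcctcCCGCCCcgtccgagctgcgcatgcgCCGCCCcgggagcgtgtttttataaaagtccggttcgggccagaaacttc
Reln, chr5:22344706-22344955, minus strand: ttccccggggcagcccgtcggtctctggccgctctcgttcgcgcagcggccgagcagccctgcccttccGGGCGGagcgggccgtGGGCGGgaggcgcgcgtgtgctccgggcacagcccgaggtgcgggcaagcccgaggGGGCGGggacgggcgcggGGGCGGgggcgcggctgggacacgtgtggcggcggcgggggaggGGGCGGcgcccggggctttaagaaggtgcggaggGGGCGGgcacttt
Vldlr, upstream start, chr19:27216234-27216483, plus strand: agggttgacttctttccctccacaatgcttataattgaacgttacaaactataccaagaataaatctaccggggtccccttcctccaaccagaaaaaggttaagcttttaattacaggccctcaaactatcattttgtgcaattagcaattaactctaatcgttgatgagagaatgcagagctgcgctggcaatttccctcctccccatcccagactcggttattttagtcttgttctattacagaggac
Vldlr, downstream start, chr19:27216770-27217019, plus strand: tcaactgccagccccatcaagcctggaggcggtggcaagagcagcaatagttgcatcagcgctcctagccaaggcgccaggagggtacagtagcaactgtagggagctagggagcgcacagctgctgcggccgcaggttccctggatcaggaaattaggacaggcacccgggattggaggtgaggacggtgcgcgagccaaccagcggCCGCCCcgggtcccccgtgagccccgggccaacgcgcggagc
The Reln window is 80% G and C with 37 CpG and 6 GC boxes, the Cxcr4 window 61.2% with 19 CpG and 3 GC boxes, and the 2 Vldlr windows differ: that of the upstream start is 41.6% with 5 CpG and 0 GC boxes, and that of the downstream start 66.4% with 18 CpG and 1 GC box. The median over the 32851 start sites of the table was 52.4% G and C, and 32.7% of windows held a GC box. The table holds 11 start sites for the 7 genes. The Gli motif GACCACCCA, searched on both strands, was in 0 of the 11 windows and in 0.225% of all windows, and of the E-boxes, the 6-base sites of ATOH1 and related factors, CAGATG or its reverse complement was in 2 of them, both of Lrp8 (14.4% of all), and CAGCTG in 1, that of the downstream Vldlr start (13% of all).

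Cxcl12, the ligand, was 105, 137, 116 and 98.6 CPM in controls 1 to 4 and 109, 134, 135 and 142 CPM in mutants 1 to 4. The groups overlapped: control 2 was above 3 of the mutants. The log2 fold change was 0.19 (SE 0.12, 95% interval -0.08 to 0.46, edgeR adjusted p = 0.495). It was 0.0054 among libraries with letter P and 0.34 among those with R. It was 0.077 with the Hox score as a covariate and 0.097 without the mutants low in Xist, mutants 2 and 4. With 1 library left out it ran from 0.13, without control 4, to 0.27, without control 2, and it was 0.14 without mutant 4. Of the tested markers of meningeal fibroblasts, a known source of CXCL12, 2 of 10 had higher means in mutants, and the summed level of the list was 513 to 883 CPM in controls and 540 to 706 CPM in mutants. Markers of endothelial cells and pericytes, another source, had higher means for 10 of 10, with summed levels of 285 to 356 CPM in controls and 317 to 450 CPM in mutants. No marker of either list was at 0 in every library, and the part of these cells in the Cxcl12 level was not tested.

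Cxcr4, the receptor that signals through Gi proteins, had the largest difference of the 7. Its level was 37.6, 40.0, 43.6 and 54.6 CPM in controls 1 to 4 and 51.5, 57.2, 83.8 and 108 CPM in mutants 1 to 4. Mutants 3 and 4 were high, and control 4 was above mutant 1, so the groups overlapped. Within letter P and within letter R, every mutant was above every control, with 2 libraries against 2 in each. The share of all genes that separate in this way was not counted. The mean was 43.9 ± 7.50 CPM across controls and 75.1 ± 26.0 CPM across mutants (SD, n = 4 each), a log2 fold change of 0.77 (SE 0.22, 95% interval 0.29 to 1.26, edgeR adjusted p = 0.381). The adjusted p was 0.0985 with DESeq2. The log2 fold change was 0.48 within letter P and 0.94 within letter R, and the test of that difference gave an edgeR adjusted p of 0.214, where 3.2% of all genes passed. It was 0.54 without mutant 4 and 0.49 with the Hox score as a covariate.

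Granule cell precursor markers were high in the same libraries as Cxcr4. The score of 12 such genes, their mean log2 CPM less the control mean, was -0.11, 0.20, 0.44 and 0.89 in mutants 1 to 4 and -0.14 to 0.17 in controls, while Cxcr4 on the same scale was 0.24, 0.39, 0.95 and 1.31 in mutants 1 to 4 and -0.21 to 0.33 in controls. Of the 12 markers, 11 had higher means in mutants, with Gli1 lower, none was at 0 in every library, and their summed level was 1428 to 1697 CPM in controls and 1462 to 2765 CPM in mutants. Atoh1, the transcription factor that defines these precursors, was 18.3, 18.3, 17.5 and 22.7 CPM in controls 1 to 4 and 17.1, 26.2, 34.96 and 48.8 CPM in mutants 1 to 4. In whole tissue, more or fewer cells of a type and more or less RNA per cell cannot be told apart, and the part of precursor content in the Cxcr4 level was not tested.

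**Figure D2:**
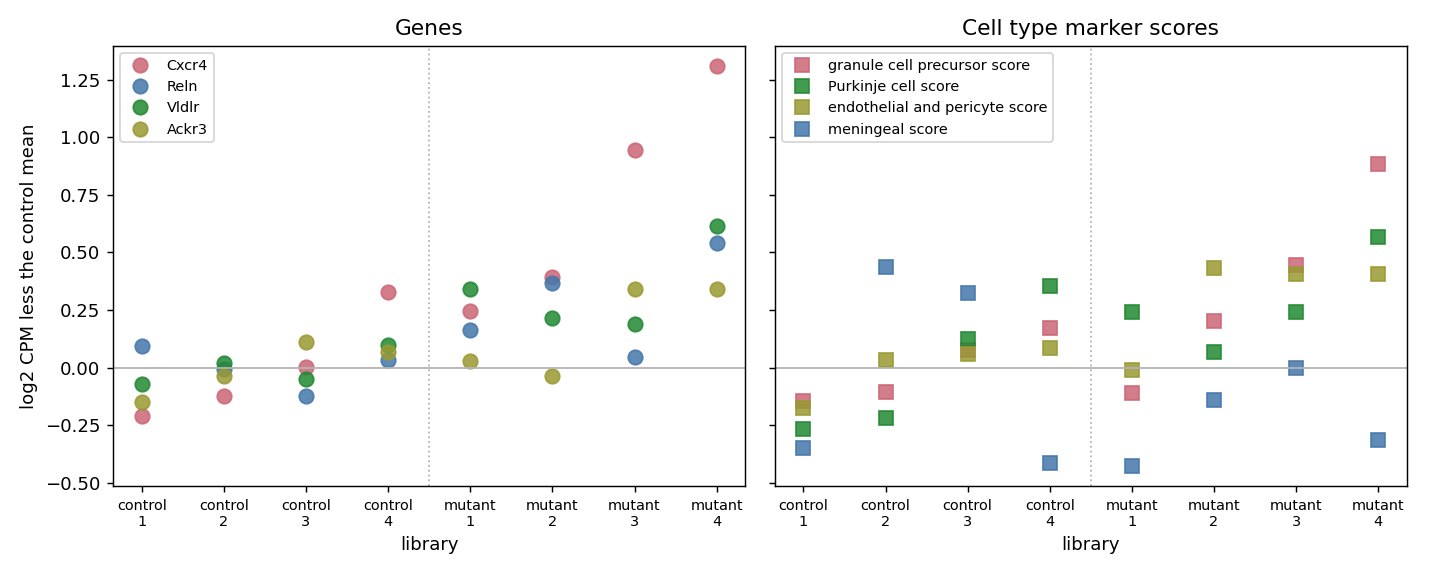
Log2 CPM less the control mean (y axis) in each library, on the left for 4 of the genes and on the right for 4 cell type marker scores. Cxcr4 and the granule cell precursor score both have their highest values in mutants 3 and 4, 0.95 and 1.31 for Cxcr4 and 0.44 and 0.89 for the score.

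Ackr3, the receptor that removes the ligand, was 18.0, 19.5, 21.6 and 20.9 CPM in controls 1 to 4 and 20.3, 19.4, 25.3 and 25.3 CPM in mutants 1 to 4. Mutants 1 and 2 lay within the range of the controls and mutants 3 and 4 above it. Its log2 fold change was 0.18 (SE 0.12, 95% interval -0.09 to 0.45, edgeR adjusted p = 0.520). It was 0.082 within letter P, 0.22 within letter R and 0.11 without mutant 4. There were 2.09, 2.05, 2.02 and 2.61 Cxcr4 counts for each Ackr3 count in controls 1 to 4, and 2.53, 2.94, 3.32 and 4.27 in mutants 1 to 4. The control 4 ratio was above that of mutant 1, and the other 3 mutants were above all controls. The mean log2 ratio was 1.13 ± 0.17 across controls and 1.68 ± 0.32 across mutants (SD, n = 4 each), a difference of 0.56 (exact two-sided permutation p = 0.0571, adjusted p = 0.0571 over the 2 ratios tested, where 4 against 4 libraries allow no p below 0.0286).

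Reln, the ligand of the other cue, was 326, 304, 280.4 and 313 CPM in controls 1 to 4 and 342, 394, 316 and 444 CPM in mutants 1 to 4. Mutant 3 was below control 1, and the other mutants were above all controls. Within each title letter every mutant was above every control, again with 2 libraries against 2 and without a count of such genes over all genes. The mean was 306 ± 19.1 CPM across controls and 374 ± 57.1 CPM across mutants (SD, n = 4 each), a log2 fold change of 0.29 (SE 0.12, 95% interval 0.03 to 0.56, edgeR adjusted p = 0.391). This was 0.22 within letter P and 0.33 within letter R. It depended on the libraries used: it was 0.19 without mutant 4, 0.12 with the Hox score as a covariate, and 0.10 without mutants 2 and 4, the libraries low in Xist, an alternative added after the data were seen. Of the cells that make Reelin, granule cell precursors had the scores given above. Nuclear neurons were read from a list of rhombic lip derived nuclear and unipolar brush neurons, which does not separate these cells. Its scores were -0.06, 0.03, -0.32 and -0.90 in mutants 1 to 4, while controls ranged from -0.12 to 0.29. In that list 2 of 8 markers had higher means in mutants, Eomes (log2 fold change 0.43) and Lmx1a (0.39), and 6 had lower means. None was at 0 in every library. The score therefore averages genes that went opposite ways and does not show the list as a whole to be lower. The summed level was 398 to 455 CPM in controls and 177 to 458 CPM in mutants. Meis2 and Slc17a6, the most abundant of the list, fell to 23.5 and 63.7 CPM in mutant 4, against control means of 164 and 190 CPM. The Hox score of mutant 4 was -4.20. The part of precursors and nuclear neurons in the Reln level was not tested.

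Vldlr, which encodes the very low density lipoprotein receptor, was 102, 108, 103 and 114 CPM in controls 1 to 4 and 135, 124, 122 and 163 CPM in mutants 1 to 4. All mutants were above all controls. The mean was 107 ± 5.65 CPM across controls and 136 ± 19.1 CPM across mutants (SD, n = 4 each), a log2 fold change of 0.35 (SE 0.11, 95% interval 0.11 to 0.59, edgeR adjusted p = 0.381). The DESeq2 adjusted p was 0.171. The log2 fold change was similar in size within letter P, 0.30, and within letter R, 0.36, and it was 0.24 without mutant 4, 0.23 with the Hox score as a covariate and 0.26 without the mutants low in Xist.

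Lrp8, the other Reelin receptor, was 161, 163, 175 and 177 CPM in controls 1 to 4 and 186, 189.8, 165 and 173 CPM in mutants 1 to 4. Both P mutants were above both P controls, and both R mutants were below both R controls. With 2 libraries against 2 in each letter, the share of all genes with such a pattern was not counted. The log2 fold change was 0.08 over all libraries (SE 0.09, 95% interval -0.11 to 0.27, edgeR adjusted p = 0.697), 0.21 within letter P and -0.086 within letter R. The test of the difference between letters gave an edgeR adjusted p of 0.210. With 1 library left out, the log2 fold change ran from 0.025, without mutant 2, to 0.11, without mutant 3. It was 0.048 without mutant 1, 0.044 without control 2 and 0.087 without mutant 4. Without both mutants low in Xist it was 0.048. Vldlr CPM were 0.630, 0.662, 0.590 and 0.645 of Lrp8 CPM in controls 1 to 4, and 0.728, 0.652, 0.739 and 0.943 in mutants 1 to 4. The ratio of mutant 2 lay within the controls and the others above them. The mean log2 ratio differed by 0.26 (exact two-sided permutation p = 0.0571, adjusted p = 0.0571), with -0.66 ± 0.07 across controls and -0.40 ± 0.22 across mutants (SD, n = 4 each). The difference was 0.093 within letter P, 0.44 within letter R and 0.16 without mutant 4.

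Dab1, the adaptor inside the receiving cell, was 73.6, 81.1, 92.5 and 105 CPM in controls 1 to 4 and 101, 95.2, 75.8 and 102 CPM in mutants 1 to 4. The groups overlapped over most of their range. Its log2 fold change was 0.09 (SE 0.13, 95% interval -0.21 to 0.38, edgeR adjusted p = 0.784). It was 0.34 within letter P and -0.18 within letter R, and the test of that difference gave an edgeR adjusted p of 0.188. With 1 library left out it ran from 0.0082, without control 1, to 0.18, without control 4. It was 0.030 without control 2, 0.038 without mutant 1, 0.056 without mutant 2, 0.17 without mutant 3 and 0.036 without mutant 4. Without both mutants low in Xist it was -2.5e-04. Over all 7 genes the test of a difference between letters passed for 0, and at an unadjusted p under 0.05 edgeR took 3 of them, Cxcr4, Lrp8 and Dab1, where it took 22.5% of all genes.

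Purkinje cells, which carry both Reelin receptors and DAB1, had marker scores of 0.24, 0.07, 0.24 and 0.57 in mutants 1 to 4, while controls ranged from -0.26 to 0.36. All 12 Purkinje markers had higher means in mutants and none passed the test, the summed level was 813 to 1231 CPM in controls and 1012 to 1485 CPM in mutants, and none was at 0 in every library. Markers of Bergmann glia and astroglia, whose fibres guide migrating cells, had higher means in mutants for 5 of 10 and lower means for 5. Their scores were -0.0063, -0.24, -0.08 and -0.15 in mutants 1 to 4 and -0.0056 to 0.0084 in controls. Every mutant was below every control, mutant 1 narrowly, but the score averages genes that went opposite ways. Log2 fold changes ran from -0.95 for Gfap to 0.41 for Gdf10, with a median of 0.0045. The score therefore does not show the list as a whole to be lower. This list had summed levels of 3494 to 4168 CPM in controls and 3158 to 3911 CPM in mutants. The part of these cells in the levels of Vldlr, Lrp8 and Dab1 was not tested.

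**Figure D3:**
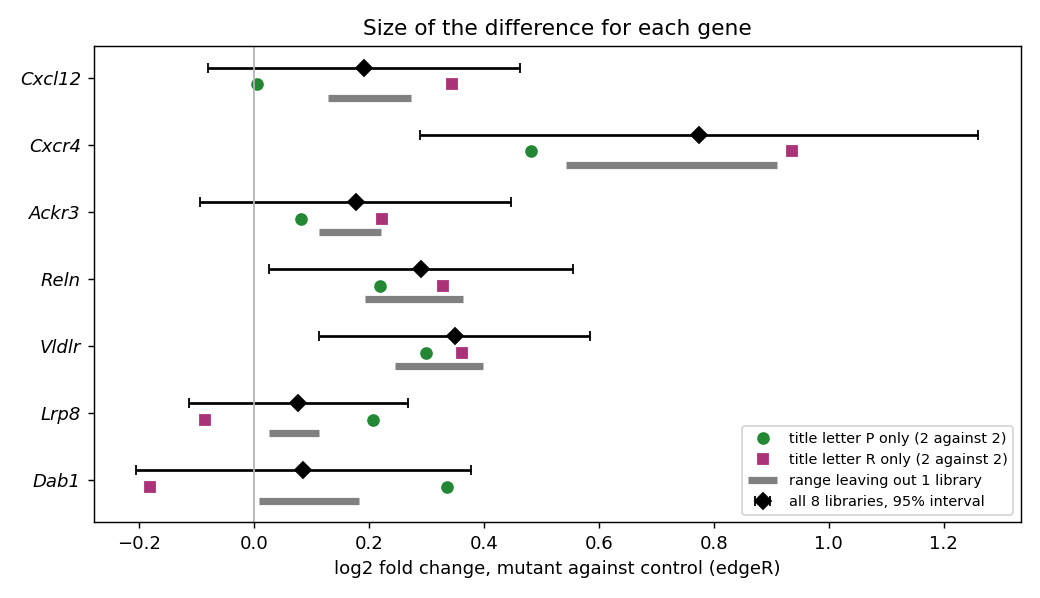
Log2 fold change of mutant against control (x axis) for each gene, with a diamond and its 95% interval for all 8 libraries, a circle for title letter P, a square for R, and a grey bar for the range when 1 library at a time is left out. The intervals of Cxcr4, Reln and Vldlr lie above 0 before adjustment over all genes, and the P and R values of Lrp8 and Dab1 lie on opposite sides of 0.

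The counts per exon bin, in which each gene is divided into pieces of exon, mostly differed in the same direction as the gene. All 64 bins of Reln (chromosome 5), all 19 of Vldlr (chromosome 19), all 6 of Cxcl12 (chromosome 6), both of Cxcr4 and all 3 of Ackr3 (chromosome 1) had higher mean CPM in mutants, as did 19 of 23 bins of Lrp8 and 12 of 17 of Dab1 (chromosome 4). CPM of bins are per 1000000 bin counts of the library, without the scaling by edgeR, and the share of all bins higher in mutants was not counted. Bin 2 of Ackr3 held only 0 to 6 counts per library. Bins of a gene share its libraries and are not replicates. The share of a gene's counts in each bin, its usage, was tested with edgeR's diffSpliceDGE. It passed for 0 of the 7 genes (Simes adjusted p = 0.999998 for each), where it passed for 0.00749% of genes. Of the 134 bins, 132 could be tested, and 0 of these had an unadjusted usage p under 0.05, where 0.339% of the 152302 bins tested did. The smallest was 0.202 for bin 5 of Cxcl12, which held 3.66 ± 0.62% of the bin counts across controls and 4.33 ± 0.90% across mutants (SD, n = 4 each).

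**Figure D4:**
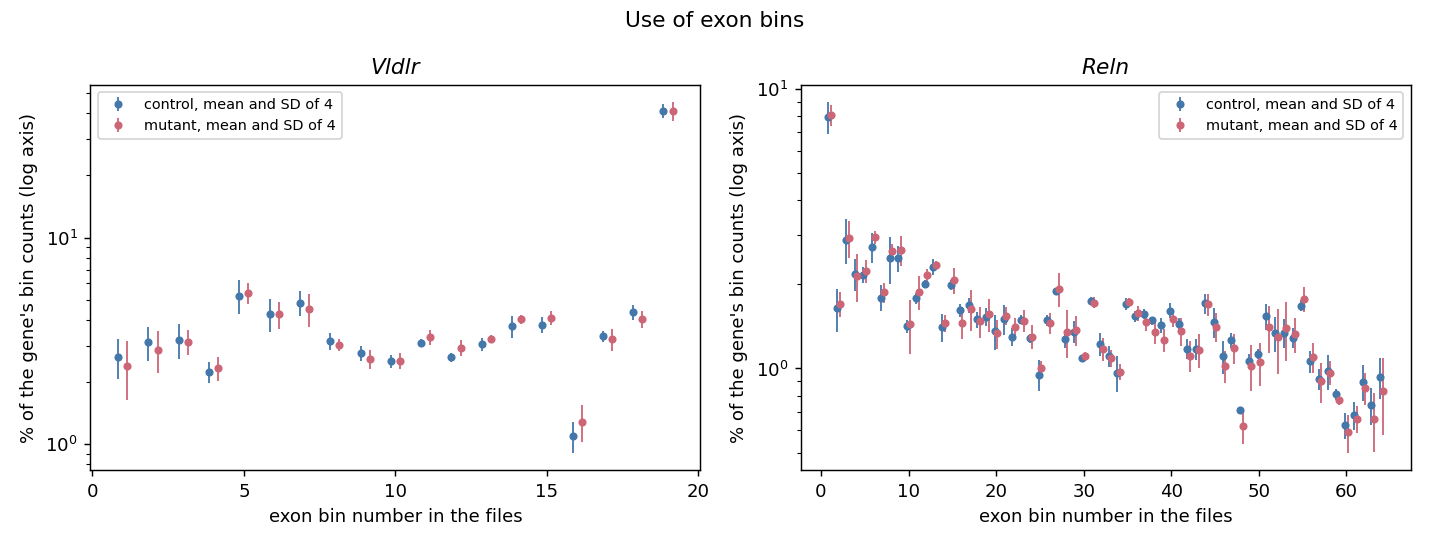
Share of the gene's bin counts (y axis, log scale) in each exon bin (x axis, in genome order) of Vldlr and Reln, as mean and SD of 4 control and 4 mutant libraries. The 2 groups follow each other along both genes, and bin 16 of Vldlr is the lowest of its gene in both, 1.09% in controls and 1.28% in mutants.

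Vldlr bin 16 stood out by its low share in both groups, and it was described further after its values were seen. In GENCODE M21 the exon at this place in the gene is absent from 2 of the 3 consensus coding transcripts, and it encodes the stretch beside the membrane that carries O-linked sugars. Bins were matched to exons by number only, since Vldlr has 19 of each. The exon is 84 bases long, and it is shown here in capitals, with the 20 bases spliced to it on either side, from the neighbouring exons, in lower case.
Vldlr exon 16, GRCm38 chr19:27246593-27246676, plus strand: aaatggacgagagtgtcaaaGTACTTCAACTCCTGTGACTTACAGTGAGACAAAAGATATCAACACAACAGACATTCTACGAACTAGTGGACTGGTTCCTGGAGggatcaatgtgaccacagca
Counts per base in bin 16 were 42.0, 44.4, 32.6 and 36.1% of the mean of bins 15 and 17 in controls 1 to 4, and 40.6, 46.9, 52.5 and 40.2% in mutants 1 to 4. The groups overlapped, with 38.8 ± 5.42% across controls and 45.04 ± 5.84% across mutants (SD, n = 4 each). The usage of the bin differed by 0.15 on the log2 scale (edgeR adjusted p = 0.999992 over all bins).

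The genes around these ligands and receptors were read from lists of 27 genes for CXCL12 and 39 for Reelin, all of which were tested. In the CXCL12 list 10 genes had higher and 17 had lower means in mutants, 0 passed in either direction with edgeR or DESeq2, and the median log2 fold change was -0.06 (range -0.57 to 0.33). At an unadjusted p under 0.05 edgeR took 3 of the 27 as higher and 1 as lower, where it took 6.94% and 5.7% of all genes, and these were the 4 smallest p-values of the list. Adrbk2, a kinase (GRK3) that desensitises CXCR4, was 103 ± 4.86 CPM across controls and 122 ± 6.94 CPM across mutants (SD, n = 4 each), a log2 fold change of 0.25 (SE 0.08, edgeR adjusted p = 0.381). Ptk2, the focal adhesion kinase, was 95.2 ± 6.85 CPM across controls and 113 ± 11.8 CPM across mutants (SD, n = 4 each), a log2 fold change of 0.25 (SE 0.10, edgeR adjusted p = 0.386). The mutants were above all controls for both genes, the 2 of 27 without overlap, where 3.6% of all genes were higher in this way. Grk5, another receptor kinase, was 12.7 ± 0.998 CPM across controls and 15.1 ± 1.06 CPM across mutants (SD, n = 4 each), with an edgeR adjusted p of 0.394. Cd74, a receptor of the cytokine MIF that pairs with CXCR4, was 2.28 ± 0.29 CPM across controls and 1.54 ± 0.52 CPM across mutants (SD, n = 4 each), a log2 fold change of -0.57 (SE 0.24, edgeR adjusted p = 0.392).

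In the Reelin list 16 genes had higher and 23 had lower means in mutants, 0 passed in either direction with edgeR or DESeq2, and the median log2 fold change was -0.02 (range -0.56 to 0.34). At an unadjusted p under 0.05 edgeR took 0 of the 39 as higher and 6 as lower, where it took 6.94% and 5.7% of all genes. The groups did not overlap for 0 of the 39, where 3.6% of all genes were higher and 2.96% lower in this way. Apoe, the apolipoprotein that binds the same receptors, was 1442 ± 174 CPM across controls and 976 ± 296 CPM across mutants (SD, n = 4 each), a log2 fold change of -0.56 (SE 0.21, edgeR adjusted p = 0.381). Apoe is made by glia and microglia. The Bergmann glia and astroglia list, with the scores given above, had 5 of 10 means lower and 5 higher. Its log2 fold changes ran from -0.95 for Gfap to 0.41 for Gdf10. The microglia score was -0.13, -0.35, -0.40 and -0.74 in mutants 1 to 4 and -0.29 to 0.28 in controls. All 10 microglia markers had lower means in mutants, and none was at 0 in every library. Their summed level was 175 to 277 CPM in controls and 138 to 214 CPM in mutants. The part of glia and microglia in the Apoe level was not tested. Cdk5, a kinase that phosphorylates DAB1 on serine, was 92.0 ± 7.07 CPM across controls and 76.7 ± 7.50 CPM across mutants (SD, n = 4 each), and Cdk5r2, 1 of its activators, was 198 ± 47.9 CPM across controls and 138 ± 29.8 CPM across mutants (SD, n = 4 each). Their log2 fold changes were -0.26 (SE 0.10) and -0.52 (SE 0.20), each with an edgeR adjusted p of 0.381. Mapk8ip1, a scaffold of the JNK pathway that binds LRP8, was 424 ± 51.8 CPM across controls and 344 ± 40.2 CPM across mutants (SD, n = 4 each), with an edgeR adjusted p of 0.388.

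**Figure D5:**
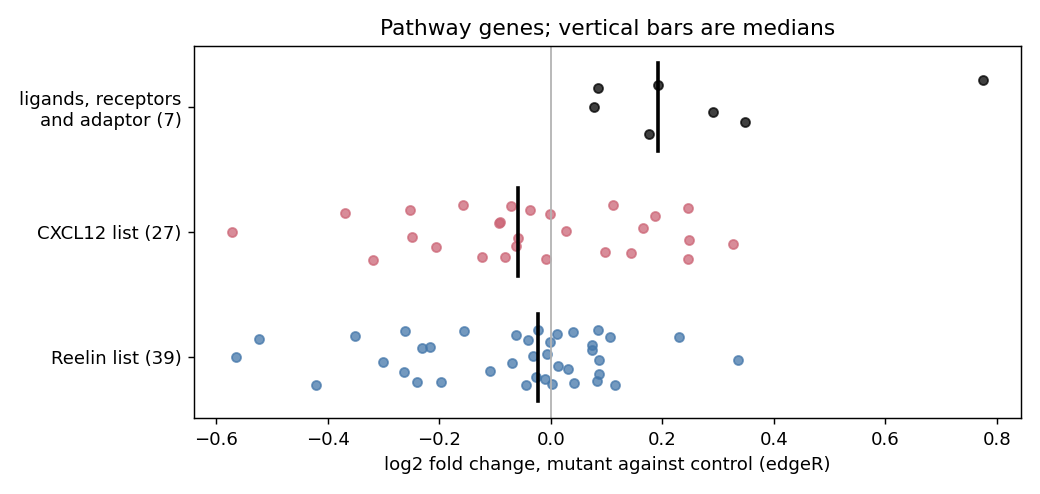
Log2 fold change of mutant against control (x axis) for the 7 ligands, receptors and adaptor and for each gene of the CXCL12 and Reelin lists (points, spread vertically for legibility), with a bar at each median. The medians are 0.19, -0.06 and -0.02, and Cxcr4 at 0.77 lies beyond every gene of both lists.

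The genes most like each member over the 8 libraries were found by Pearson's r of log2 CPM among genes with a mean of at least 5 CPM, as a description in which the groups themselves and any outlying library take part. For Cxcr4 they were Mdm1, Rad54l and Tacc3 (r = 0.995, 0.995 and 0.993, n = 8 libraries). For Vldlr they were Ctnnd1, Senp1 and Slc7a6 (r = 0.995, 0.995 and 0.994), and for Reln Pnn, Zbtb1 and Med23 (r = 0.980, 0.971 and 0.960). For Cxcl12 they were Col3a1, Shc1 and Lama4 (r = 0.962, 0.947 and 0.944), of which Col3a1 and Lama4 encode extracellular matrix proteins of meninges and vessels. Ackr3 had Slc35a4, Tmem176b and Apex2 (r = 0.986, 0.984 and 0.981), Lrp8 had Mamld1 and Zcchc2 (r = 0.981 and 0.977), and Dab1 had Rnf165, Stau1 and Ncoa1 (r = 0.970, 0.965 and 0.954). They were taken by the highest values among all genes of that level, and no test was made of them.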

How the data were processed

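PolyA RNA of 8 single-pup cerebella (TRIzol, TruSeq, per the labels' protocols) was sequenced. The authors deposited raw counts per gene and per exon bin for each library; TopHat, HTSeq, DESeq2 and mm9 are named per the submitters' processing notes, without versions. Strand use and annotation are not given in the sources used here, so reads of overlapping or antisense genes may be mixed. Lines that name no gene held 30.1 to 34.3% of entries in libraries with letter P and 24.8 to 26.3% in those with letter R. These lines were left out. Libraries of a group are separate pups and differed by more than counting noise. Chi-square per degree of freedom was 7.42 to 33.9 among controls and 29.2 to 81.0 among mutants.

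The test of genes was that of edgeR 4.0.16 under R 4.3.3 (filterByExpr, TMM, robust quasi-likelihood F test, two-sided, genotype only, Benjamini-Hochberg over 15789 genes, threshold 0.05). Log2 CPM used a prior count of 2. Exon bins were tested with diffSpliceDGE over 13351 genes, and the 2 receptor ratios by exact permutation over 70 assignments. Both steps across genes were tested on simulated data. Alternatives were DESeq2 1.42.0, other scaling, filters and shrinkage, the title letter, the Hox score, and leaving out libraries.

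The members, lists and tests were chosen with earlier results of these data known. Named are all members, the 4 genes of the smallest p in each pathway list, the 3 genes most like each member (1 of them is not reported here), Sufu and Atoh1; of the 2 bins per member that the rule takes, only those the text turns on are printed. Sequences are from RefSeq (GRCm38.p6, 7 of 7 members matched) and GENCODE M21 (GRCm38), not the files' build.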

Additional observations from a re-analysis of the deposited data

Results flagged for a closer look

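A test for a library far from the other 3 of its group (Dixon's ratio of the gap to the range, against its 95% critical value) was made on 50 groups of values and marked 4, where chance marks about 1 in 20. The log2 ratio of Cxcr4 to Ackr3 in controls had a Dixon ratio of 0.867, with control 4 high at 1.38. Control 4 was also high in the score of rhombic lip derived nuclear and unipolar brush neurons, 0.29, with a Dixon ratio of 0.873. Among controls, only Tbr1 and Lhx2 of that list were highest in control 4, at 8.59 and 12.7 CPM. Slc17a6 and Lmx1a were lowest there, at 165 and 9.20 CPM, so the score does not show the list as a whole to be higher. In mutants the endothelial and pericyte score had a Dixon ratio of 0.940, with mutant 1 low at -0.01, and the choroid plexus score one of 0.892, with mutant 2 high at 1.15.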

How the results depend on the processing

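The number of members called stayed 0 under all 15 alternatives, as did the numbers called in the CXCL12 list and in the Reelin list. It stayed 0 under both alternatives of the title letter test and under all 11 of the exon bin test. Over all genes, DESeq2 called 52 where edgeR called 0, and leaving out 1 library gave 0 to 1, with the 1 call when mutant 1 was left out; the cause was not tested. Dab1 turned to -0.18 and Lrp8 to -0.086 within title letter R, and Dab1 to -2.5e-04 without the mutants low in Xist. The log2 ratio of Vldlr to Lrp8 differed by 0.093 within letter P and 0.44 within letter R, and by 0.16 to 0.34 with 1 library left out. That of Cxcr4 to Ackr3 differed by 0.42 to 0.67 with 1 library left out. The adjusted p of Cxcr4 ran from 0.0911, within letter R, to 0.9999 over its alternatives.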

Other observations

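The other cell type lists give the setting of these libraries. The choroid plexus score was 0.67, 1.15, 0.68 and 0.72 in mutants 1 to 4 and -0.47 to 0.43 in controls, with 9 of 10 markers higher in every mutant than in every control, as 3.6% of all genes were, and 5 called higher by DESeq2, as 0.248% were. Differentiating granule neuron markers had scores of 0.07, 0.08, 0.20 and 0.52 in mutants 1 to 4 and -0.11 to 0.10 in controls, so mutants 1 and 2 lay within the controls, with 10 of 12 means higher and 1 of 12 markers without overlap. GABAergic and glycinergic neuron markers had scores of -0.15, -0.38, -0.31 and -1.26 in mutants 1 to 4 and -0.32 to 0.21 in controls, so mutants 1 and 3 lay within the controls, with 7 of 7 means lower and 1 of 7 markers without overlap. Oligodendrocyte lineage markers had scores of -0.32, -0.51, -0.35 and -1.28 in mutants 1 to 4, all below the controls, which ranged from -0.21 to 0.27, with 8 of 9 means lower and 3 of 9 markers without overlap. Brainstem markers had scores of -0.27, 0.16, -1.11 and -3.05 in mutants 1 to 4 and -0.24 to 0.22 in controls, with 8 of 10 means lower, 4 of 10 markers lower without overlap and 1, Isl1, called lower by DESeq2 (adjusted p = 0.0133). Over all genes, 2.96% were lower without overlap and 0.0745% were called lower by DESeq2. The lowest score of all 3 lists was in mutant 4. Of 5 red cell genes, 1 passed the filter on low counts.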
